A study of Rattus norvegicus with 6 samples.

Results

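Rab GTPases are small membrane-bound proteins of which each marks particular organelles. All genes named Rab followed by a number, with at most 1 further letter and digit, were taken from the 6 deposited count tables, and 44 of 56 such genes had at least 10 counts in 3 or more libraries and are reported. The tables list 23139 genes, of which 11977 had enough counts to be tested, among them all 44 Rab genes. A Rab protein switches between an inactive form bound to GDP, which GDP dissociation inhibitors hold in the cytosol, and an active form bound to GTP, which sits on a membrane and recruits effectors such as tethers, motors and adaptors. Guanine nucleotide exchange factors switch Rab proteins on and GTPase-activating proteins switch them off. In microglia and other phagocytes these proteins direct the uptake and maturation of phagosomes, the recycling of receptors, lysosomal traffic and the secretion of cytokines.

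Primary microglia were prepared from cortices of Wistar rats at postnatal day 1, shaken off mixed cultures and enriched with magnetic beads against CD11b/c. Cells received 100 ng/mL lipopolysaccharide (LPS, a bacterial cell wall component that activates microglia) with the solvent DMSO (LPS) or the same LPS with 50 µM siponimod (LPS/siponimod), a modulator of sphingosine-1-phosphate receptors. Each condition had 3 biological replicates, whose polyA-selected RNA was sequenced. All 6 libraries come from LPS-stimulated cells, so the values compare LPS/siponimod with LPS and say nothing of the unstimulated state. The study's methods give stimulation times of 1 and 3 days for its cultures without naming the one used for these libraries. Whether replicates came from separate litters is not given either, so p-values measure the spread between these cultures. Total counts were 39484979, 38301365 and 38080379 in LPS replicates 1 to 3 and 46643859, 43336006 and 38857441 in LPS/siponimod replicates 1 to 3.

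LPS replicate 3 stood apart from the other LPS libraries. Its log2 expression correlated over genes with that of LPS replicates 1 and 2 at 0.948 and 0.957, against 0.987 between those replicates. LPS/siponimod replicate 2 lay closest to the LPS libraries, with correlations of 0.947, 0.942 and 0.934 to LPS replicates 1 to 3, against 0.874 to 0.911 for the other siponimod libraries. Calls of fits without either library are given with those of the other fits. Some transcripts of other brain cells, singled out after their values were seen, were highest in the replicate 3 cultures of each condition. Other markers of the same cells, given below, were not. The microtubule-associated gene Map2 of neurons had 162 counts in LPS replicate 3 and 115 in LPS/siponimod replicate 3, against at most 3 elsewhere. Gap43, of growing axons, had 503 and 204 counts in these libraries and at most 3 in the others. Counts of Olig1 and Pdgfra, of the oligodendrocyte lineage, reached 515 and 284 in LPS replicate 3 and 17 and 81 in LPS/siponimod replicate 3, against at most 5 elsewhere. Of the markers of other cells, 0 of 2 tested neuronal genes passed the test, beside 25.3% of all genes tested. Summed levels of the listed neuronal genes were 9.55, 6.46 and 27.5 CPM (counts relative to the library's total, scaled here by edgeR's TMM method) in LPS and 4.82, 8.27 and 26.0 in LPS/siponimod. Over the 6 libraries together their most abundant gene was Tubb3, and in LPS replicates 1 and 2 it was Syn1. With the replicate number as a block Tubb3 passed, which is 50.0% of the 2, beside 34.0% of all genes. It had 1.65, 0.909 and 6.43 CPM in LPS and 4.35, 5.74 and 11.7 CPM in LPS/siponimod. Nefl had at most 3 counts in any library.

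Of 4 tested astrocyte genes 1 fell (25.0%, beside 25.3% of all genes). The list summed to 48.4, 24.4 and 27.6 CPM in LPS and 29.4, 28.8 and 61.1 in LPS/siponimod, mostly of Slc1a3, with Gjb6 at 0. Slc1a3 had 40.5, 20.1 and 15.5 CPM in LPS and 26.3, 26.1 and 55.7 CPM in LPS/siponimod. It was thus lowest in LPS replicate 3 and highest in LPS/siponimod replicate 3. Of 4 tested oligodendrocyte genes 1 rose and 1 fell (50.0%, beside 25.3% of all genes). That list summed to 150, 136 and 149 CPM in LPS and 49.2, 67.8 and 60.0 in LPS/siponimod, with Cnp the most abundant and Mog and Mag at no more than 3 counts. Cnp had 145, 131 and 113 CPM in LPS and 37.8, 57.5 and 37.4 CPM in LPS/siponimod, lowest in replicate 3 of each condition. Of 7 tested fibroblast and vascular genes 1 rose (14.3%, beside 25.3% of all genes). That list summed to 160, 206 and 85.5 CPM in LPS and 48.0, 82.5 and 32.9 in LPS/siponimod, led over the 6 libraries together by Cdh5. With the block 1 of the 7 rose and 2 fell, or 42.9% beside 34.0% of all genes. Acta2 had at most 3 counts in any library. The microglial list was far more abundant, at 12011, 9762 and 6656 CPM in LPS and 5146, 6459 and 3725 in LPS/siponimod, led over the 6 libraries together by Csf1r. None of its 15 tested genes rose and 3 fell, namely Itgam, Aif1 and Cx3cr1, or 20.0% beside 25.3% of all genes tested. These 3 calls were lost without LPS replicate 2 and without LPS/siponimod replicate 1. With the replicate number as a block 1 of the 15 rose and 8 fell, or 60.0% beside 34.0% of all genes. The part of these cells and of the microglial markers in the Rab results was not tested. In bulk RNA, fewer cells of a type and less RNA per cell cannot be told apart.

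The median Rab gene changed little, while single members rose and fell with siponimod in 4 of the 6 compartment groups. A gene was called a DEG at a Benjamini-Hochberg adjusted p of at most 0.05 in edgeR's quasi-likelihood test and a fold change (FC) of at least 1.5. Of the 44 Rab genes, 6 rose and 6 fell with siponimod, which is 27.3% of them beside 25.3% of all genes tested (13.6% higher and 11.7% lower). Rab30, Rab15, Rab20, Rab33b, Rab9 and Rab5a rose, and Rab44, Rab3a, Rab29, Rab43, Rab5c and Rab4b fell. The median log2 FC was 0.01 for the Rab genes and -0.02 for all genes, and the median size of a change regardless of direction was 0.508 and 0.509. Levels of the conditions did not overlap for 23 Rab genes, 10 higher and 13 lower with siponimod, or 52.3% beside 49.3% of all genes (25.3% higher and 24.0% lower). All 3 pairs of same-numbered replicates moved the same way for 33 Rab genes, or 75.0% beside 70.8%. The shares of calls and of groups that do not overlap among the Rab genes were thus near those of the transcriptome.

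**Figure D1:**
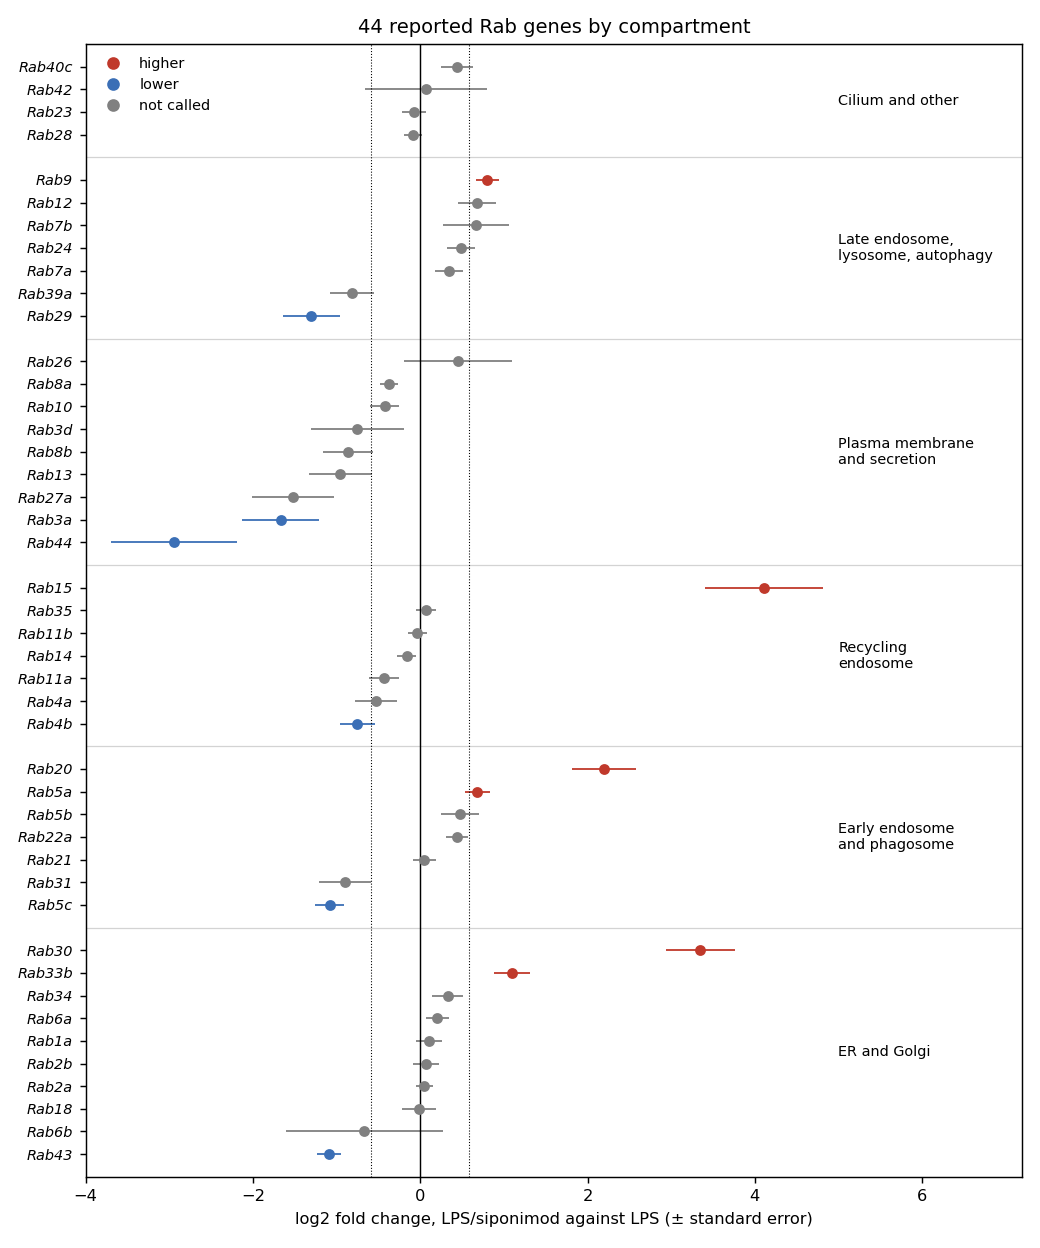
Log2 FC (x axis, LPS/siponimod against LPS, with bars of 1 standard error) of the 44 reported Rab genes, grouped by compartment. Dotted lines mark the FC of 1.5, red points rose, blue points fell and grey points did not pass. The 9 genes of secretion lie to the left of 0 with the exception of Rab26.

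When the replicate number was added as a block, 7 Rab genes rose and 9 fell, beside 34.0% of all genes (17.7% higher and 16.4% lower). The same 12 genes passed, and Rab12 among those higher and Rab27a, Rab31 and Rab39a among those lower were added. Calls depended on single libraries. Without LPS replicate 2, 3 of the 12 remained (Rab20, Rab30 and Rab43), as did 3 without LPS/siponimod replicate 1 (Rab15, Rab30 and Rab43) and 5 without LPS/siponimod replicate 3 (Rab15, Rab20, Rab30, Rab43 and Rab5c). The share of all genes called dropped to 5.16%, 6.22% and 8.50% in these fits. Without LPS replicate 1, Rab15, Rab20, Rab30, Rab33b, Rab9, Rab43 and Rab5c remained, beside 13.9% of all genes. Without LPS replicate 3, the library that stood apart, 11 remained and Rab13, Rab27a and Rab4a were added, beside 30.3% of all genes, and Rab4b was lost with a log2 FC of -0.60 and an adjusted p of 0.0672. Without LPS/siponimod replicate 2, 11 remained and 5 were added, Rab12, Rab24 and Rab40c among those higher and Rab39a and Rab8b among those lower, beside 23.4% of all genes. Rab3a was lost in that fit, with a log2 FC of -1.93 and an adjusted p of 0.0639. Rab30 and Rab43 were the Rab genes called in each of these 6 fits, and the direction of all 12 was the same in each. The conditions did not overlap for any of the 12, so leaving out 1 library could hardly reverse a direction. The constant direction is therefore no support. Rab30 met the count minimum only through its level with siponimod. Without replicate 3 of both conditions, a setting chosen after the data were examined, Rab15, Rab20, Rab30, Rab9, Rab43, Rab29, Rab3a and Rab5c remained and Rab13 and Rab27a were added among those lower, beside 19.3% of all genes.

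**Figure D2:**
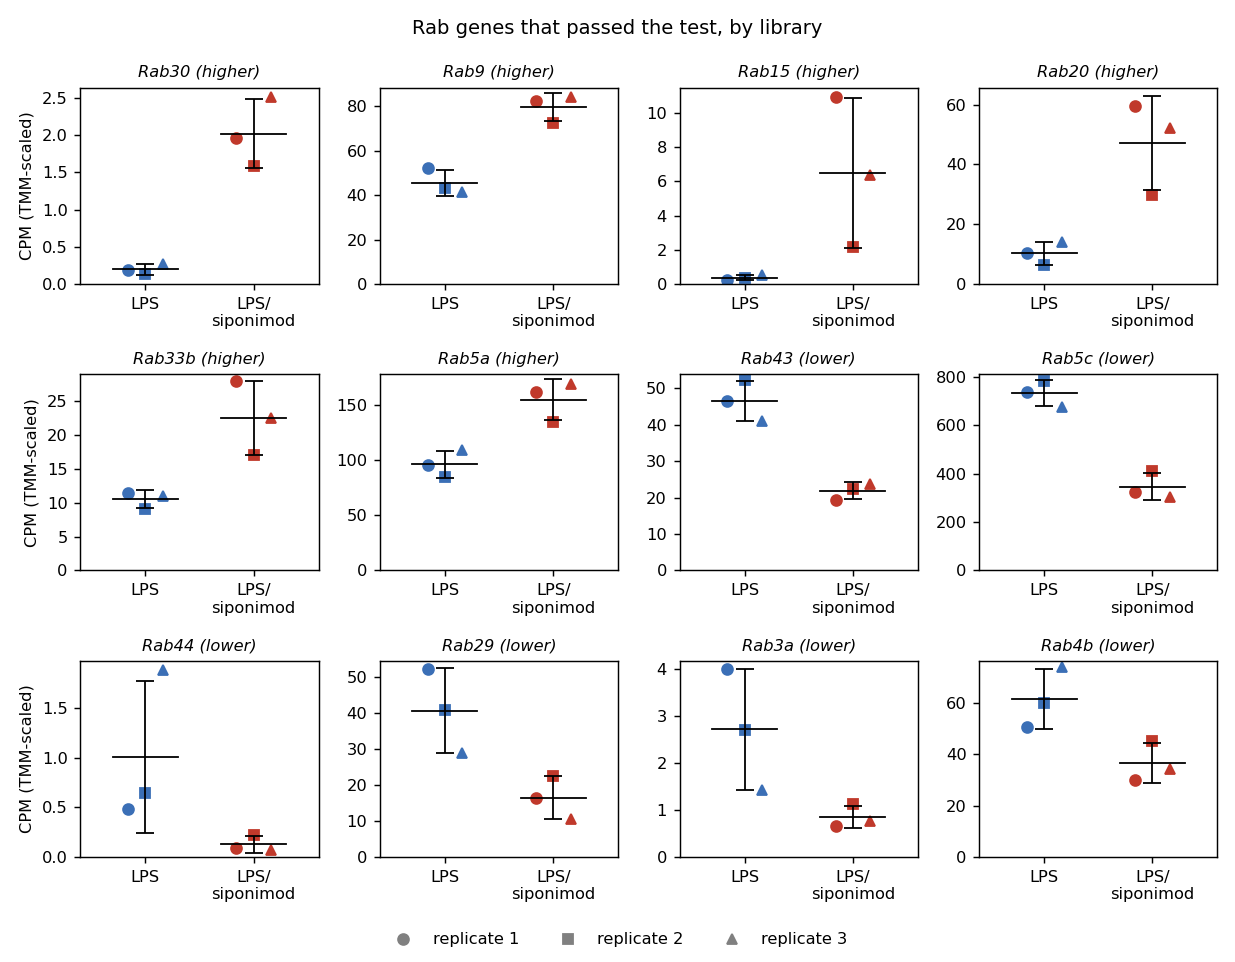
CPM (y axis, linear and starting at 0, with a scale for each gene) of the 12 Rab genes that passed the test in LPS (blue) and LPS/siponimod (red) libraries. Symbols mark the replicate number, long lines the mean and bars 1 SD (n = 3). The conditions do not overlap for any of the 12, and the LPS values of Rab44 and Rab3a spread widely.

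Of the 10 genes of the endoplasmic reticulum (ER) and Golgi, 2 rose and 1 fell (30.0%, beside 25.3% of all genes). Their median log2 FC was 0.09. Those that passed were Golgi genes, and Rab1a and Rab2a, the best known genes of transport between the ER and the Golgi, did not pass. Rab30, a Golgi protein, had 7, 5 and 10 counts in LPS and 91, 71 and 103 in LPS/siponimod, or 0.189, 0.130 and 0.269 CPM and 1.96, 1.59 and 2.51 CPM. All siponimod libraries lay above all LPS libraries, at a low level, and Rab30 rose 10.2-fold (log2 FC 3.35 ± 0.42 SE, adjusted p = 0.00716). It reached 10 counts in 1 of 3 LPS libraries and was therefore reported only through its level with siponimod. Rab33b, which takes part in the formation of autophagosomes with the autophagy protein ATG16L1, stood at 11.5, 9.01 and 11 CPM in LPS and 28.0, 17.0 and 22.4 CPM in LPS/siponimod. The conditions did not overlap and Rab33b rose (log2 FC 1.10 ± 0.22, adjusted p = 0.0178). Rab43, also of the Golgi, stood at 46.4, 52.1 and 41.0 CPM in LPS and 19.3, 22.4 and 23.8 CPM in LPS/siponimod. It fell in every pair, 2.13-fold (log2 FC -1.09 ± 0.14, adjusted p = 0.00735), with little spread within either condition.

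Rab1a, which directs transport from the ER to the Golgi, had 312, 348 and 401 CPM in LPS and 420, 347 and 373 CPM in LPS/siponimod. These values overlapped (log2 FC 0.10, adjusted p = 0.648). Its relative Rab1b is listed under suffixed names and lies outside the name rule. Rab2a, Rab2b, Rab6a, Rab18 and Rab34 had log2 FCs between -0.02 and 0.33 and none passed. Rab6b, a neuronal relative of the Golgi protein Rab6a, had its highest level of each condition in replicate 3, with 1.16, 1.56 and 6.70 CPM in LPS and 0.409, 2.04 and 3.49 CPM in LPS/siponimod. Rab27b had 34 and 51 counts and Rab9b 18 and 26 in the same replicate 3 libraries of LPS and LPS/siponimod, against at most 4 in any other library. These are the libraries with counts of Map2 and Gap43, but Rab6b also had 43 and 60 counts in LPS replicates 1 and 2 and 91 in LPS/siponimod replicate 2. Rab27b and Rab9b had more counts in LPS/siponimod replicate 3 than in LPS replicate 3, whereas Map2 and Gap43 had fewer. The part of other cells in these levels was not tested.

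The early endosome and phagosome group had 7 members with a median log2 FC of 0.44. Of these, 2 rose and 1 fell (42.9%, beside 25.3% of all genes). The conditions did not overlap for 6 of them, 4 higher and 2 lower (85.7%, beside 49.3% of all genes). Of the Rab5 paralogues, which drive the fusion of early endosomes, 1 rose and 1 fell. Rab5a stood at 95.9, 84.3 and 109 CPM in LPS and 162, 134 and 169 CPM in LPS/siponimod. It was higher in all 3 pairs and rose (log2 FC 0.68 ± 0.15, adjusted p = 0.0244). Rab5b had 280, 285 and 203 CPM in LPS and 452, 306 and 310 CPM in LPS/siponimod, without overlap but with an adjusted p of 0.155. Rab5c stood at 737, 781 and 676 CPM in LPS and 326, 409 and 301 CPM in LPS/siponimod, so that each siponimod library lay far below each LPS library. It fell 2.12-fold (log2 FC -1.08 ± 0.17, adjusted p = 0.0108).

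The makeup of Rab5 transcripts therefore differed between these libraries when counted within each library, which needs no scaling between libraries. The shares restate the levels above, since Rab5a and Rab5b were higher and Rab5c lower without overlap. They are no separate support. Rab5c held 66.2%, 67.9% and 68.5% of the counts of the 3 paralogues in LPS and 34.7%, 48.2% and 38.7% in LPS/siponimod (mean 67.5% ± 1.15 and 40.5% ± 6.94, SD, n = 3). Rab5a held 8.62%, 7.34% and 11% in LPS and 17.2%, 15.8% and 21.6% in LPS/siponimod. The share of Rab5b was 25.1%, 24.8% and 20.5% in LPS and 48.1%, 36% and 39.7% in LPS/siponimod. Each of the 3 shares separated the conditions, but they depend on each other, since a lower share of Rab5c raises the others. The count ratio of Rab5a to Rab5b overlapped, at 0.343, 0.296 and 0.537 in LPS and 0.358, 0.438 and 0.544 in LPS/siponimod. The sum of the 3 genes was 1083 ± 85.0 CPM in LPS and 856 ± 79.8 CPM in LPS/siponimod. Longer transcripts draw more reads, so the shares compare the conditions and not the abundance of the paralogues.

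**Figure D3:**
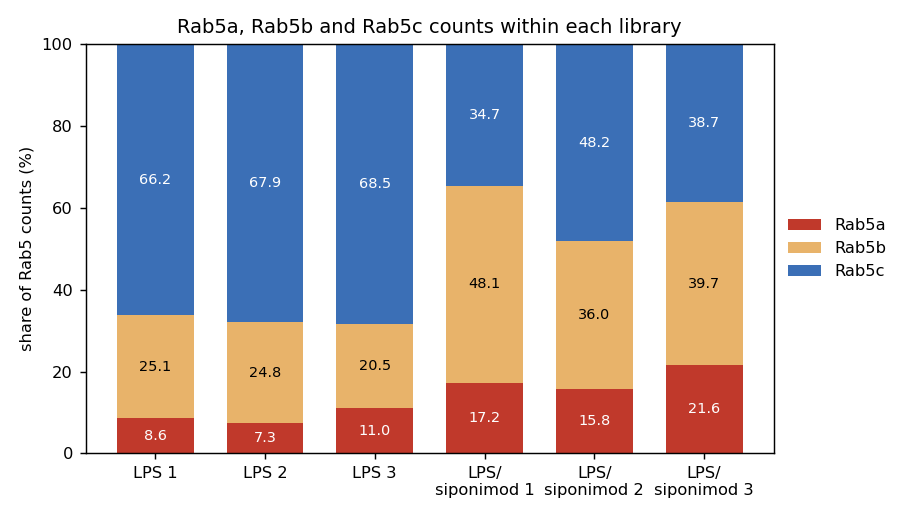
Shares of Rab5a, Rab5b and Rab5c in their summed counts (y axis, percent) in each of the 6 libraries. The Rab5c segment covers 66.2% to 68.5% in LPS and 34.7% to 48.2% in LPS/siponimod.

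Rab20, which acts on maturing phagosomes and endosomes of macrophages, stood at 10.4, 6.41 and 14.1 CPM in LPS and 59.7, 29.7 and 52.0 CPM in LPS/siponimod. The lowest siponimod library lay above the highest LPS library, and Rab20 rose 4.58-fold (log2 FC 2.19 ± 0.38, adjusted p = 0.0126). Rab22a, of the early endosome, had 57.8, 61.0 and 50.8 CPM in LPS and 83.2, 69.7 and 77.0 CPM in LPS/siponimod. Its conditions did not overlap and its adjusted p was 0.045, but its log2 FC of 0.44 lay under the FC of 1.5. Rab31, a relative of Rab22a at the trans-Golgi and endosomes, had 374, 482 and 824 CPM in LPS and 252, 328 and 320 CPM in LPS/siponimod. Each pair was lower, and the log2 FC was -0.90 with an adjusted p of 0.0754. With the replicate block, Rab31 passed (log2 FC -0.83, adjusted p = 0.0383). Without LPS replicate 3, which held the highest value, the log2 FC of Rab31 was -0.51 with an adjusted p of 0.0953. Rab21, which takes part in integrin uptake, had a log2 FC of 0.05.

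Early endosome genes both rose and fell, as did those of other compartments, and all 4 Rab windows with the letters marked below are theirs. Promoter sequences of all early endosome genes with an entry are shown (Rab22a had none). They were read from RefSeq on the GRCr8 build, from 250 bases before to 50 after the gene start on the strand of the gene, and 38 of the 44 Rab genes had an entry, 1 of them (Rab9) under a synonym. The counts had been mapped to another build, mRatBN7.2, and the coordinates are not used for them. Capitals mark CACGTG, the core of the E-box that transcription factors of the MITF and TFE family bind at lysosomal and other genes. The Rab20 window is chr16:84721177-84721476 on the plus strand, that of Rab5a chr9:6720877-6721176 on the plus strand and that of Rab5c chr10:86166400-86166699 on the minus strand. Those of Rab31 (chr9:112828043-112828342), Rab21 (chr7:52814894-52815193) and Rab5b (chr7:1712687-1712986) are on the minus strand.
Rab20: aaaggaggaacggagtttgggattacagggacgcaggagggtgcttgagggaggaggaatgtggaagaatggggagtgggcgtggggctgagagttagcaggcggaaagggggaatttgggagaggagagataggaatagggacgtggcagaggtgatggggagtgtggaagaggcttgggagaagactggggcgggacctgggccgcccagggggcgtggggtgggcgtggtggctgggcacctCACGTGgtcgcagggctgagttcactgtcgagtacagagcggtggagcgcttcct
Rab5a: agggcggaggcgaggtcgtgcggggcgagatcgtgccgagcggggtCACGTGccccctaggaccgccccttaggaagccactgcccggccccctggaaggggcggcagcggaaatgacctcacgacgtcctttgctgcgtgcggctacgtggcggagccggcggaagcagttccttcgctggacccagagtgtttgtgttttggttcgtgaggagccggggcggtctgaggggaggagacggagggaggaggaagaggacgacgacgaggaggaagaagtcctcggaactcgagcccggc
Rab5c: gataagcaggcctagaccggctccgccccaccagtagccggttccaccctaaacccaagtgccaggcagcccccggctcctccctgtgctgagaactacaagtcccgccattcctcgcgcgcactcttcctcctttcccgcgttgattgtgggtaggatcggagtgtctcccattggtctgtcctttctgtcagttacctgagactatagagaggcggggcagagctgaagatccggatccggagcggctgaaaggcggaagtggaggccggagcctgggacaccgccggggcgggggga
Rab31: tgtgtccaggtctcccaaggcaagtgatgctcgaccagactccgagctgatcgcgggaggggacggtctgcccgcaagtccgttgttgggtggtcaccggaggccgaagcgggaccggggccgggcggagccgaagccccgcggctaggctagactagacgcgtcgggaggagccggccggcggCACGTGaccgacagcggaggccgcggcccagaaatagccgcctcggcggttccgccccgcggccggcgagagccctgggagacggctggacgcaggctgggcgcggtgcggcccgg
Rab21: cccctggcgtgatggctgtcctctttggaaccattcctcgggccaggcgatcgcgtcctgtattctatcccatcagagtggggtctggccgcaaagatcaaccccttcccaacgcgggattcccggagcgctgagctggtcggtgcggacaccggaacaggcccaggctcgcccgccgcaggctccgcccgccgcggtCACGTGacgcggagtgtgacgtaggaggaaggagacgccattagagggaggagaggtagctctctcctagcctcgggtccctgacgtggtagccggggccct
Rab5b: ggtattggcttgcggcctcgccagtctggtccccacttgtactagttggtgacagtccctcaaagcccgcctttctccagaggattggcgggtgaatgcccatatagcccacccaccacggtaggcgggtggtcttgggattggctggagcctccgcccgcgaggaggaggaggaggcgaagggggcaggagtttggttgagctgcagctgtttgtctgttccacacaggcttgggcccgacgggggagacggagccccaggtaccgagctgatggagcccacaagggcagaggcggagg
The letters CACGTG, which read the same on both strands, start 5 bases before the gene start in Rab20, 204 before it in Rab5a, 66 in Rab31 and 52 in Rab21, and are not in the Rab5c and Rab5b windows. They were present in these 4 of the 38 Rab windows and in 6.65% of 27457 promoter windows of the genome. Rab20 and Rab5a rose, and Rab21 had a log2 FC of 0.05. Rab31 was lower in every pair and passed as lower only with the replicate block, not in the main fit. The letters were in 2 of 6 windows of Rab genes that rose, 0 of 6 that fell and 2 of 26 that were not called. Whether they bear on the changes was not tested. The letters GATGCAA, a core of the element bound by C/EBP and ATF factors, were searched on both strands. They were in 0 of the 38 Rab windows and in 2.48% of all windows. Such a match describes letters in a window and not a bound site.

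Of the 7 recycling genes 1 rose and 1 fell (28.6%, beside 25.3% of all genes), and the median log2 FC was -0.16. Rab15, a protein of early and recycling endosomes studied mainly in neurons, had 8, 14 and 20 counts in LPS and 507, 96 and 261 in LPS/siponimod. This corresponds to 0.216, 0.363 and 0.538 CPM against 10.9, 2.15 and 6.37 CPM. The siponimod libraries differed widely among themselves, but each lay above all LPS libraries, and Rab15 rose 17.3-fold (log2 FC 4.11 ± 0.71, adjusted p = 0.0125). Without LPS/siponimod replicate 1, which held the highest value, its log2 FC was 3.49 (adjusted p = 0.0493), and without LPS replicate 2 its adjusted p was 0.0624. Rab15 reached 10 counts in 2 of 3 LPS libraries, so it met the count minimum only with the condition in which it was high. Rab4b, which serves fast recycling from early endosomes, stood at 50.8, 60.1 and 74.2 CPM in LPS and 30.1, 45.3 and 34.4 CPM in LPS/siponimod. The groups did not overlap and Rab4b fell (log2 FC -0.75 ± 0.21, adjusted p = 0.0414). Its paralogue Rab4a had a log2 FC of -0.53 and did not pass (adjusted p = 0.157). Without LPS replicate 3 its log2 FC was -0.71 and it passed (adjusted p = 0.0454).

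Rab11a, the Rab that defines the recycling endosome, had 256, 260 and 365 CPM in LPS and 225, 227 and 201 CPM in LPS/siponimod. Every siponimod library lay under every LPS library, but the difference did not pass the test (log2 FC -0.43, adjusted p = 0.119). Its paralogue Rab11b had overlapping values and a log2 FC of -0.03. Rab14 and Rab35, which act at endosomes and the plasma membrane, had log2 FCs of -0.16 and 0.07.

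Among the 9 genes of secretion and transport to the plasma membrane, none rose and 2 fell. This is 22.2% of them, beside 25.3% of all genes. The median log2 FC was -0.87, and 8 of the 9 were lower in all 3 pairs, as were 35.4% of all genes. Of the 9, 5 were lower without overlap of the conditions, as were 24.0% of all genes. Rab3a, a regulator of vesicle exocytosis in neurons and of lysosome exocytosis in other cells, stood at 3.99, 2.70 and 1.43 CPM in LPS and 0.667, 1.12 and 0.756 CPM in LPS/siponimod. It fell (log2 FC -1.67 ± 0.46, adjusted p = 0.0404), with an adjusted p of up to 0.162 when 1 library was left out (LPS/siponimod replicate 1). Rab44, a large Rab protein of granules in haematopoietic cells, had 18, 25 and 70 counts in LPS and 4, 10 and 3 in LPS/siponimod. It fell as well (log2 FC -2.94 ± 0.75, adjusted p = 0.0336). Rab44 was reported through its LPS level, since 1 of 3 siponimod libraries reached 10 counts, and LPS replicate 3 held most of its LPS counts. Without that library its log2 FC was -2.12 (adjusted p = 0.0488), and without LPS/siponimod replicate 2 it was -3.61 (adjusted p = 0.0465). In the other 4 fits that left out 1 library Rab44 did not pass, with adjusted p from 0.0572 without LPS replicate 1 to 0.15 without LPS/siponimod replicate 1.

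Rab8a and Rab8b direct vesicles from the trans-Golgi to the plasma membrane. Rab8a had 156, 147 and 147 CPM in LPS and 114, 121 and 114 CPM in LPS/siponimod, which did not overlap. Its adjusted p was 0.0448, but its log2 FC of -0.37 was under the FC of 1.5. Rab8b had 799, 875 and 1309 CPM in LPS and 436, 737 and 462 CPM in LPS/siponimod, without overlap and with a log2 FC of -0.87 (adjusted p = 0.0729). Rab27a, which docks secretory lysosomes at the plasma membrane, had 14.7, 18.5 and 5.14 CPM in LPS and 4.93, 5.29 and 3.15 CPM in LPS/siponimod. LPS replicate 3 lay among the siponimod libraries, and the adjusted p was 0.0607 (log2 FC -1.52). Rab27a passed with the replicate block (log2 FC -1.38, adjusted p = 0.0168) and without LPS replicate 3 (log2 FC -1.90, adjusted p = 0.0131). Rab13, which acts at cell junctions and migrating fronts, had 253, 171 and 88.4 CPM in LPS and 87.2, 104 and 73.3 CPM in LPS/siponimod. Here too LPS replicate 3 overlapped the other condition (log2 FC -0.96, adjusted p = 0.104), and without it Rab13 passed (log2 FC -1.27, adjusted p = 0.0176). Rab10, Rab3d and Rab26 had log2 FCs of -0.43, -0.76 and 0.45.

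The late endosome, lysosome and autophagy group had 7 members with a median log2 FC of 0.49. Of these, 1 rose and 1 fell (28.6%, beside 25.3% of all genes). Rab9, which returns mannose 6-phosphate receptors from late endosomes to the trans-Golgi, stood at 52.4, 43.3 and 41.5 CPM in LPS and 82.3, 72.4 and 84.3 CPM in LPS/siponimod. The groups were well separated and Rab9 rose (log2 FC 0.80 ± 0.14, adjusted p = 0.012). Rab29, which can recruit the kinase LRRK2 to the trans-Golgi and lysosomes, had 52.1, 40.9 and 28.8 CPM in LPS and 16.4, 22.5 and 10.5 CPM in LPS/siponimod. In each condition replicate 3 was lowest, and Rab29 fell in all pairs (log2 FC -1.30 ± 0.34, adjusted p = 0.0347). Lrrk2 itself had 1, 0 and 28 counts in LPS and 7, 1 and 26 in LPS/siponimod and was not tested.

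Rab7a, the central Rab of late endosomes and lysosomes, had 348, 347 and 318 CPM in LPS and 450, 353 and 483 CPM in LPS/siponimod. Its conditions were adjacent without overlap, and it did not pass (log2 FC 0.34, adjusted p = 0.158). Rab39a, found on phagosomes and late endosomes of macrophages, had 11.8, 15.5 and 12.3 CPM in LPS and 6.50, 10.2 and 5.80 CPM in LPS/siponimod. It was lower in each pair, with an adjusted p of 0.0593 (log2 FC -0.82), and passed with the replicate block at 0.017. Rab12, which takes receptors from recycling endosomes to lysosomes, had 40.2, 30.0 and 33.2 CPM in LPS and 64.4, 39.2 and 61.7 CPM in LPS/siponimod. LPS/siponimod replicate 2 lay within the LPS range (log2 FC 0.68, adjusted p = 0.0655), and with the replicate block Rab12 passed (log2 FC 0.65, adjusted p = 0.0228). Rab24, linked to the clearance of autophagosomes, and Rab7b had log2 FCs of 0.49 and 0.67 and did not pass. The remaining 4 reported genes, Rab23 and Rab28 of cilia, Rab40c and Rab42, had log2 FCs from -0.08 to 0.44 and none passed.

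Summed over the 44 genes, Rab transcripts were less abundant with siponimod, at 5399, 5555 and 6219 CPM in LPS and 4803, 4778 and 4521 CPM in LPS/siponimod. The means were 5724 ± 436 and 4701 ± 156 CPM (SD, n = 3), and the groups did not overlap. Rab5c, Rab8b and Rab31, picked after their values were seen, are 3 genes with many reads and lower values with siponimod. Without them the sums were 3489, 3416 and 3411 CPM in LPS and 3789, 3303 and 3437 CPM in LPS/siponimod, which overlapped. Removing genes picked for lower values narrows the difference by construction, so no conclusion is drawn from this overlap.

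Paralogues share effectors and may share reads, so the ratio of their counts was taken within each library for 10 pairs. The ratio did not overlap between the conditions in 3 of them, with a two-sided exact permutation p of 0.1 for each, the smallest that 3 against 3 libraries can give (adjusted p = 0.333 over the 10 pairs). The count ratio of Rab5a to Rab5c was 0.130, 0.108 and 0.161 in LPS and 0.496, 0.327 and 0.559 in LPS/siponimod. That of Rab22a to Rab31 was 0.154, 0.127 and 0.062 in LPS and 0.330, 0.213 and 0.240 in LPS/siponimod. Both ratios shifted toward the first paralogue in each siponimod library. This follows from the levels above, since Rab5a and Rab22a were higher and Rab5c and Rab31 lower without overlap. These ratios are therefore no further support. The ratio of Rab3a to Rab3d went the other way, from 3.02, 4.33 and 3.79 to 1.11, 2.63 and 2.21, on few counts.

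Genes that control Rab proteins moved in both directions. Of 161 listed regulators and effectors 142 were tested, of which 25 rose and 22 fell (33.1%, beside 25.3% of all genes). With the replicate block 32 of the 142 rose and 24 fell, beside 34.0% of all genes called. Of 49 exchange factors tested, 6 rose and 12 fell (36.7%), with a median log2 FC of -0.26. With the block 7 rose and 13 fell (40.8%, beside 34.0% of all genes). Rab3il1, an exchange factor for Rab3a and Rab8 proteins, fell with a log2 FC of -1.59 ± 0.20 (adjusted p = 0.00724). Ric1, part of an exchange factor for Rab6, fell by 1.39 on the log2 scale (adjusted p = 0.00797). Trappc1, a subunit of the TRAPP complexes that activate Rab1, fell by 1.20 (adjusted p = 0.00657). Of those that rose, Dennd4a acts on Rab10 and Dennd1b on Rab35. Their log2 FCs were 0.94 and 1.70 (adjusted p = 0.00726 and 0.0144).

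Rin2 and Rin3, exchange factors for Rab5 proteins picked after their values were seen, fell. Rin2 had 204, 151 and 154 CPM in LPS and 37.5, 85.5 and 47.6 CPM in LPS/siponimod (log2 FC -1.58, adjusted p = 0.0202). Rin3 had 216, 171 and 138 CPM in LPS and 32.7, 91.9 and 29.3 CPM in LPS/siponimod (log2 FC -1.77, adjusted p = 0.039). Rabgef1, another Rab5 exchange factor picked in the same way, rose with a log2 FC of 0.81 (adjusted p = 0.03). Listed exchange factors of Rab5 proteins thus moved both ways.

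Of 32 tested GTPase-activating proteins with a TBC domain or of the Rab3 complex, 9 rose and 5 fell (43.8%, beside 25.3% of all genes), with a median log2 FC of 0.18. With the replicate block 9 rose and 6 fell (46.9%, beside 34.0% of all genes). Tbc1d2, which inactivates Rab7, stood at 10.0, 6.13 and 7.81 CPM in LPS and 144, 73.3 and 104 CPM in LPS/siponimod. These ranges lay far apart, and Tbc1d2 rose 13.4-fold (log2 FC 3.74 ± 0.32, adjusted p = 0.00396). Tbc1d25, which acts on Rab33b at autophagosomes, stood at 9.09, 7.71 and 8.53 CPM in LPS and 27.7, 20.7 and 25.2 CPM in LPS/siponimod. It rose with a log2 FC of 1.54 ± 0.16 (adjusted p = 0.00582), as its substrate Rab33b did. Tbc1d8b rose with a log2 FC of 1.11 (adjusted p = 0.00733). Tbc1d2b, Evi5l and Tbc1d22b fell, with log2 FCs of -1.65, -1.14 and -1.06 and adjusted p of 0.0119, 0.0106 and 0.0133.

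Of 49 tested effectors 9 rose and 3 fell (24.5%, beside 25.3% of all genes), with a median log2 FC of 0.22, and with the replicate block 14 rose and 3 fell (34.7%, beside 34.0% of all genes). Appl1, an adaptor that Rab5 recruits to early signalling endosomes, stood at 18.5, 17.0 and 18.6 CPM in LPS and 50.0, 36.2 and 37.9 CPM in LPS/siponimod (log2 FC 1.20, adjusted p = 0.00737). Myo5a, an actin motor that carries Rab-bearing vesicles, and Golgb1, a long Golgi tether, rose with log2 FCs of 1.31 and 1.05 (adjusted p = 0.00779 and 0.00733). Gcc2, a trans-Golgi tether that binds Rab6 and Rab9, fell by 1.62 on the log2 scale (adjusted p = 0.00657). Rabep2, a Rab5 effector, and Ocrl, an inositol phosphatase that binds several Rab proteins, fell with log2 FCs of -0.68 and -1.46 (adjusted p = 0.0161 and 0.042).

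Of the 8 genes of membrane extraction and prenylation 1 rose and none fell (12.5%, beside 25.3% of all genes), and 2 rose with the replicate block (25.0%, beside 34.0%). The first was Rabac1, a receptor for prenylated Rab proteins at the Golgi, with 39.4, 27.5 and 21.5 CPM in LPS and 94.0, 78.2 and 80.6 CPM in LPS/siponimod (log2 FC 1.52 ± 0.24, adjusted p = 0.0102). Of 4 tested kinases and phosphatases of Rab proteins none rose and 2 fell (50.0%, beside 25.3% of all genes). With the block 2 fell as well (50.0%, beside 34.0%). Lrrk1, which phosphorylates Rab7a, had 70.1, 83.2 and 22.7 CPM in LPS and 11.5, 23.4 and 7.46 CPM in LPS/siponimod, so that LPS replicate 3 overlapped the other condition (log2 FC -2.06, adjusted p = 0.049). Ppm1m, of the phosphatase family that acts on Rab proteins, fell with a log2 FC of -2.61 ± 0.47 (adjusted p = 0.0136).

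Of the regulators and effectors named, Rab3il1, Ric1, Trappc1, Dennd4a, Tbc1d2, Tbc1d25, Tbc1d8b, Appl1, Myo5a, Golgb1 and Gcc2 were called whichever library was left out. Rabac1, Tbc1d2b, Evi5l and Tbc1d22b were lost without LPS replicate 2 and without LPS/siponimod replicate 1, with adjusted p of up to 0.0702. Dennd1b was lost without LPS replicate 1 and without LPS/siponimod replicates 1 or 3 (adjusted p up to 0.062), and Ppm1m without LPS replicate 2 and LPS/siponimod replicates 1 or 3 (adjusted p up to 0.0598). Rin2, Rin3, Rabgef1, Rabep2, Ocrl and Lrrk1 were called in 2 of the 6 fits, those without LPS replicate 3 and without LPS/siponimod replicate 2. The adjusted p reached 0.143 for Rin3 and 0.175 for Lrrk1. Without LPS/siponimod replicate 2 the log2 FC was -2.50 for Rin3 and -3.29 for Ppm1m.

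**Figure D4:**
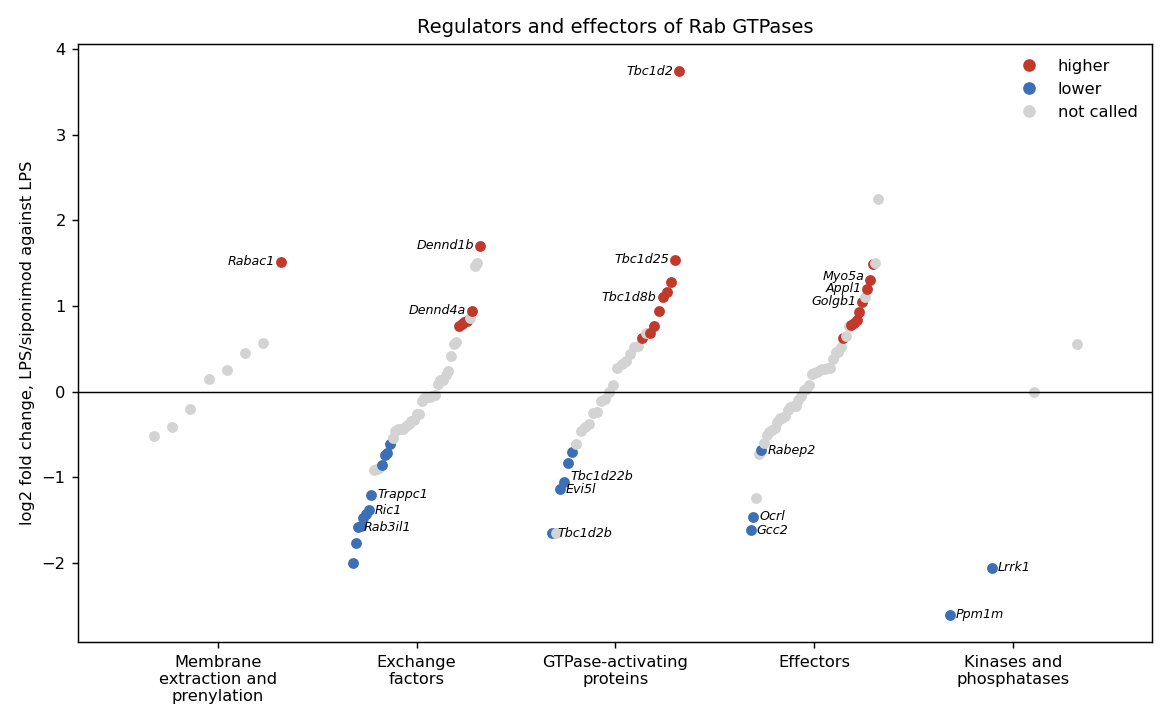
Log2 FC (y axis, LPS/siponimod against LPS) of the 142 tested regulators and effectors of Rab proteins, a point per gene, ordered by value within each of 5 classes. Red points rose, blue points fell and grey points did not pass. Tbc1d2 stands highest at 3.74 and Ppm1m lowest at -2.61.

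The 12 Rab genes under the count minimum were Rab17, Rab19, Rab25, Rab27b, Rab33a, Rab36, Rab37, Rab38, Rab3b, Rab3c, Rab40b and Rab9b. Rab17, of epithelia, had no count in any library, which allows up to 3 counts in each. Rab40b, of a ubiquitin ligase, had 20, 28 and 7 counts in LPS and 2, 3 and 2 in LPS/siponimod. Rab33a, a relative of Rab33b, had 2 counts in each LPS library and 19, 5 and 3 with siponimod. These genes were not reported further, since too few libraries held 10 counts.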

How the data were processed

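RNA of primary rat microglia was sequenced as 3 libraries of LPS and 3 of LPS/siponimod. Per the labels and the study's methods, the authors converted reads with bcl2fastq (version 2.20.0.422), trimmed them, mapped them to mRatBN7.2 in the CLC Genomics Workbench and deposited a table of unnormalized total counts per gene for every library. How strand and reads matching several genes were handled is not given in the sources used here, so values of near-identical paralogues and of overlapping or antisense genes are uncertain. In 1 library 1 row without a name, which held no counts, was left out.

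The count tables were tested with edgeR (version 4.0.16 in R 4.3.3, glmQLFit and glmQLFTest, with a term for condition), limma (version 3.58.1) and DESeq2 (version 1.42.0). TMM factors were used and filterByExpr (minimum count of 10, minimum total of 15) kept 11977 genes. p-values were adjusted by Benjamini-Hochberg over all of them, and standard errors were obtained as the absolute log2 FC over the root of the F statistic. The floor of 3 counts covers counting error alone, because PCR copies were not marked by molecular identifiers. The procedure was tested on simulated counts. The number of changed genes it was first required to call was not reached. The requirement was then replaced by ones on fold estimates, false calls and large changes, which were met. These were set with the first outcome known, so meeting them is no independent check.

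The Rab genes and all lists of regulators, markers and paralogues were chosen with earlier results of these data known. Named with values were each called Rab gene, the 3 others with the smallest adjusted p, and Rab5a, Rab7a, Rab11a and Rab1a, and of each regulator list up to 3 called genes per direction with the smallest p, of which 1 is not reported here. Further members, such as Rab31, Rab27a, Rab13 and Rab12, are given because a single library or the block decided their call, and were chosen after their values were seen, as were Rab40b and Rab33a. Olig1, Pdgfra, Map2 and Gap43 were singled out in the same way.

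After centring on the condition means, same-numbered libraries of the conditions correlated over genes at 0.42, 0.545 and 0.611, and differently numbered ones between -0.534 and 0.0856. Centring makes the values of each gene sum to 0 within a condition, so a positive same-number correlation in part lowers the others by construction. On these values alone, replicate numbers were taken to pair cultures across the conditions, which the labels do not state. Alternatives were RLE scaling, DESeq2, the likelihood ratio test, limma-voom, no filter beyond 1 count, a mean of at least 1 CPM, the replicate block, glmTreat at the FC of 1.5 and fits lacking 1 library each. Leaving out replicate 3 of both conditions was added after the data were examined.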

Additional observations from a re-analysis of the deposited data

How the results depend on the processing

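Most calls rested on modest margins at 3 libraries per condition. Requiring evidence that the change itself exceeded the FC of 1.5 (glmTreat) left 3 Rab genes higher and 1 lower, 693 genes higher and 297 lower among all genes, and 11 regulators and effectors higher and 8 lower. That setting called 8.27% of all genes. DESeq2 called 7 Rab genes higher and 11 lower, beside 32.5% of all genes. Without the filter on low counts, which tests 17057 genes, 6 were higher and 3 lower, beside 14.9%. Leaving out 1 library at a time gave 2 to 9 Rab genes higher and 1 to 8 lower, 469 to 1941 of all genes higher and 182 to 1772 lower, and 9 to 26 regulators and effectors higher and 4 to 26 lower. The cause was not tested. With the replicate block 7 Rab genes were higher and 9 lower, and 32 regulators and effectors were higher and 24 lower. The block raised the calls among all genes too, to 34.0% (17.7% higher and 16.4% lower) from 25.3%. No Rab call of the unblocked fit was lost under the block, and among Rab genes it changed the calls of Rab12, Rab27a, Rab31 and Rab39a only. RLE scaling gave the same 12 Rab genes. limma-voom shared 11 of them, with Rab3a lost and Rab39a gained. The conditions did not overlap for any of the 12 called Rab genes, so their constant direction is no support. None changed direction under an alternative that tested it (the minimum of 1 CPM left Rab44 untested). Rab30 and Rab43 were called in each, but Rab30 met the count minimum only through its level with siponimod, so its stability is no support. The median log2 FC of the Rab genes stayed between -0.06 and 0.05 when 1 library was left out. Depth limits the genes with few counts, Rab30, Rab15, Rab44 and Rab3a, whose fold changes rest on small LPS or LPS/siponimod counts.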
